A study of Mus musculus with 4 samples.

Results

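The genes described here encode effector proteins of basophils and mast cells, the immune cells that carry immunoglobulin E (IgE) on their surface and release histamine and proteases. They are Cpa3, Fcer1a, Ms4a2, Hdc, Mcpt8, Gzmb, Cma1, Tpsb2 and Il1rl1, and their probe sets were taken by the gene symbol of the platform annotation. Of the 9 genes, 8 had a probe set on both array types, out of 12393 named genes with a shared probe set. No probe set of either array type carries the symbol Il1rl1 in that annotation, so Il1rl1, the receptor for interleukin 33, was not analysed here. The 8 genes have 10 shared probe sets, and Ms4a2 has 1 more on the larger array alone. Of the 8 genes, 6 passed a filter on low signals and were tested, while Cma1 and Tpsb2 lay under it.

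The RNA came from granulocyte/monocyte progenitors (GMP), bone marrow cells sorted by flow cytometry from mice 10 to 16 weeks old. Each group had 2 preparations, 1 measured on an Affymetrix MOE 430A array (430A) and 1 on an MOE430_2 array. Icsbp-deficient mice lack the transcription factor Icsbp, also named Irf8, and each of their preparations pooled at least 8 animals, against at least 10 for wild type. The 430A sample used as wild type has a label that gives a mixed background (C57/Bl6 – S129Ola) but no genotype, which was taken from the series' design text. No source used here gives the background of the other mice or the Icsbp allele, and a further Icsbp-deficient preparation in the design text was not analysed here. Both Irf8 probe sets still gave signal on the Icsbp-deficient arrays, at 2776 and 3234 on 430A and 2725 and 1892 on MOE430_2, and neither passed the test (limma adjusted p = 0.124 and 0.832). No source used here says which part of the gene is deleted, so these probe sets do not check the genotype labels.

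Basophils and mast cells arise in the bone marrow from myeloid progenitors, and the GMP gate is known to hold cells with basophil and mast cell potential. Both cell types bind IgE through a receptor built from an alpha chain (Fcer1a), a beta chain (Ms4a2) and a gamma chain shared with other Fc receptors (Fcer1g). Crosslinking of that receptor sets off release of granules that hold histamine, made by Hdc, and proteases such as Cpa3, Mcpt8, Cma1 and Tpsb2. Gata2 is a transcription factor both lineages need, and Irf8 has known roles in monocytes, dendritic cells, basophils and mast cells.

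The 250 bases before the annotated start of the 5 genes whose mean signal was at least 2-fold lower in Icsbp-deficient GMP are shown. Mcpt8, also lower on both array types, was 1.82-fold lower and is not shown. They are RefSeq sequences of build GRCm38.p6, written 5′ to 3′ in the direction of the gene, and capitals mark matches to the GATA motif on either strand. The motif was searched as the letters GATA with an A or T before them and an A or G after them.

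Cpa3 (chr3:20242182-20242431, minus strand): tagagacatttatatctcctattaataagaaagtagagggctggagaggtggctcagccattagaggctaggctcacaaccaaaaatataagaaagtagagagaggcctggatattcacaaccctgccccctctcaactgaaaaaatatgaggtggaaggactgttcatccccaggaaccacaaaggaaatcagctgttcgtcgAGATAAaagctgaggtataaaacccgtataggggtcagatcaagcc
Gzmb (chr14:56262335-56262584, minus strand): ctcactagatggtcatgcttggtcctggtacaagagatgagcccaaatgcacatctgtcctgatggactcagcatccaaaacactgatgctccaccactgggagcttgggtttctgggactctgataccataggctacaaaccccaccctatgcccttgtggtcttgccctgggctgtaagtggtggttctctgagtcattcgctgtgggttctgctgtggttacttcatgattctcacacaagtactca
Fcer1a (chr1:173227230-173227479, minus strand): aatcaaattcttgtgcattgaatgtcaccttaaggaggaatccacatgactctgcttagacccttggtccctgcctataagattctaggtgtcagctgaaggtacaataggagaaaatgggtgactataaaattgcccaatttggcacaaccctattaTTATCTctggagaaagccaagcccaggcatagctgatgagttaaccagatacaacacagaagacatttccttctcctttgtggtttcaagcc
Ms4a2 (chr19:11623720-11623969, minus strand): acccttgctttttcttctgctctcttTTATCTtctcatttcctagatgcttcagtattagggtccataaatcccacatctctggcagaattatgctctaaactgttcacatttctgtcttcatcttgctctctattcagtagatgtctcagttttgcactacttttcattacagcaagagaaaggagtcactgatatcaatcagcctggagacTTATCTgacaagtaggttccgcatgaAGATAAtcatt
Hdc (chr2:126618679-126618928, minus strand): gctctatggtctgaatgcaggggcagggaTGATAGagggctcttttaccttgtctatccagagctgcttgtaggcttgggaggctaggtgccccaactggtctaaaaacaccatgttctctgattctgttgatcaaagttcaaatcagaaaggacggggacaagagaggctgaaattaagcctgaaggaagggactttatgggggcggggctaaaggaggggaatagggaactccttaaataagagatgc

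Counted from the start site to the first base of the match, Cpa3 held 1 match at -46, Fcer1a 1 at -92 and Hdc 1 at -221. Ms4a2 held 3, at -224, -37 and -11. Gzmb held none, nor did Mcpt8. Over the 8 members with a reference promoter, 6 held at least 1 match, Cma1 and Il1rl1 among them, and 26.5% of all 32851 promoter windows of this length held 1. The ETS-IRF composite element (GGAANNGAAA), the IRF-ETS composite sequence (GAAANNGGAA) and the core of the interferon-stimulated response element (GAAANNGAAA), searched on both strands and able to overlap each other, had matches in 0 of the 8 members. They were found in 2.3%, 2.3% and 2.98% of all windows. A match is a description of these letters only, and binding was not measured.

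Transcripts of Cpa3, Gzmb, Fcer1a, Ms4a2, Hdc and Mcpt8 were lower in Icsbp-deficient than in wild type GMP on both array types. On the log2(signal + 50) scale Cpa3 fell most, 7.0-fold on average, and Mcpt8 least, 1.82-fold. The other granule proteases among the members, Cma1 and Tpsb2, lay under the filter on their mean over the 4 arrays and were not tested. Signals are given as array units after scaling every array to the same trimmed mean, 500. Each ratio divides Icsbp-deficient by wild type signal on the log2(signal + 50) scale, which understates the change of low signals. The ± is the moderated standard error of the mean of n = 2 ratios, 1 per array type, from limma. In bulk RNA, fewer cells of a type and less RNA per cell cannot be told apart.

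**Figure D1:**
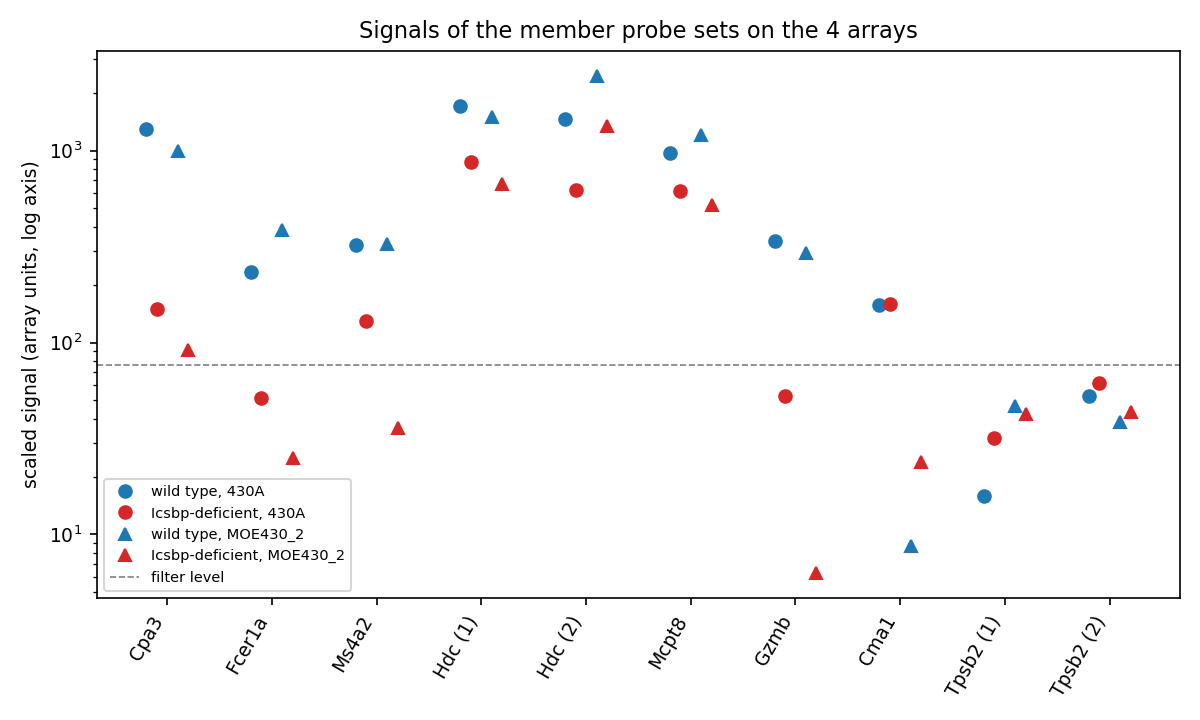
Scaled signal (array units, log axis) of the 10 shared probe sets on each of the 4 arrays, circles for 430A and triangles for MOE430_2, blue for wild type and red for Icsbp-deficient GMP. The dashed line is the filter level of 76.8, which was applied to the mean over the 4 arrays. Blue lies above red on both array types for Cpa3, Fcer1a, Ms4a2, Hdc, Mcpt8 and Gzmb, but not for Cma1 and Tpsb2.

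All 6 tested members were called lower at an adjusted p under 0.05, over a background of 2.34% of 7820 tested genes called lower and 3.26% called higher. Their median log2 ratio was -1.79, against -0.01 over all tested genes. Fcer1a and Gzmb on both Icsbp-deficient arrays, and Ms4a2 on 1 of them, lay under the filter level, so these 3 passed the filter through their wild type signal and had to differ to be tested. The count and the median are therefore no support of their own, and the members were chosen with earlier results of these data known. With array type left out of the model 0 of the 6 members passed (adjusted p from 0.226 to 1.0), and leaving out 1 array at a time from that unblocked fit left 1 or 2. Cpa3 was called in each of those 4 fits, Gzmb without the Icsbp-deficient 430A array, and Hdc without the Icsbp-deficient MOE430_2 array. Without the 430A array whose genotype the label does not give, the log2 ratio of Cpa3 was -2.62. In a fit with 1 array left out, 1 group has both array types and the other has 1. Its ratio therefore also holds the difference between the array types for that probe set.

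Cpa3 encodes carboxypeptidase A3, a granule enzyme of mast cells that removes amino acids from the C-terminal end of peptides. Wild type GMP gave a signal of 1294 on 430A and 998 on MOE430_2, and Icsbp-deficient GMP 149 and 91.7. Wild type was far above Icsbp-deficient GMP on both array types. The array types gave nearly the same ratio, -2.77 on 430A and -2.85 on MOE430_2. The mean log2 ratio was -2.81 ± 0.16 (limma adjusted p = 2.37e-05). Among 13576 tested probe sets this was the 6th lowest mean ratio, the 2nd lowest on 430A and the 12th lowest on MOE430_2. In wild type GMP the probe set stood at percentiles 87.5 and 83.9 of all shared probe sets, and in Icsbp-deficient GMP at 46.9 and 46.6.

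Gzmb encodes granzyme B, a serine protease best known from the granules of cytotoxic lymphocytes and also found in mast cells. Its wild type signals were 337 on 430A and 293 on MOE430_2, and its Icsbp-deficient signals 52.6 and 6.31. The wild type arrays lay close together and the Icsbp-deficient ones among the lower signals of their arrays, at percentiles 27.6 and 9.6. The mean log2 ratio was -2.24 ± 0.23 (limma adjusted p = 0.000643), with -1.91 on 430A and -2.58 on MOE430_2. Both Icsbp-deficient signals lay under the filter level, so no fold without the offset is given.

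Mcpt8, a serine protease of mouse basophils, was the least reduced of the tested members. It read 973 on 430A and 1209.5 on MOE430_2 in wild type GMP, and 619.6 and 522 in Icsbp-deficient GMP. Wild type was above Icsbp-deficient GMP on both array types, and the fall was larger on MOE430_2, at -1.11 against -0.62 on 430A. The mean log2 ratio was -0.87 ± 0.16 (limma adjusted p = 0.0154). The call ended without the intensity trend in the variance (adjusted p = 0.0689) and without the filter on low signals (adjusted p = 0.0552).

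The mast cell chymase Cma1 and the mast cell tryptase Tpsb2 are proteases of mature mast cell granules. Cma1 gave 157 and 159 on 430A and 8.73 and 24.0 on MOE430_2, wild type first, so its 430A signals were above the filter level in both genotypes and its MOE430_2 signals below it. The first Tpsb2 probe set read 15.9 and 31.7 on 430A and 46.8 and 42.6 on MOE430_2, and the second 52.7 and 61.6 on 430A and 38.6 and 43.5 on MOE430_2, wild type first. In the fit without the filter their log2 ratios were 0.17 ± 0.23 for Cma1 and 0.14 ± 0.19 and 0.11 ± 0.20 for Tpsb2, with adjusted p from 0.822 to 0.880. A difference was not detectable, which does not show that the genotypes were alike. With a mean of 6.87 on the log2 scale Cma1 was just outside the filter level of 6.99, and Gzmb, at 7.37, was the member just inside.

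**Figure D2:**
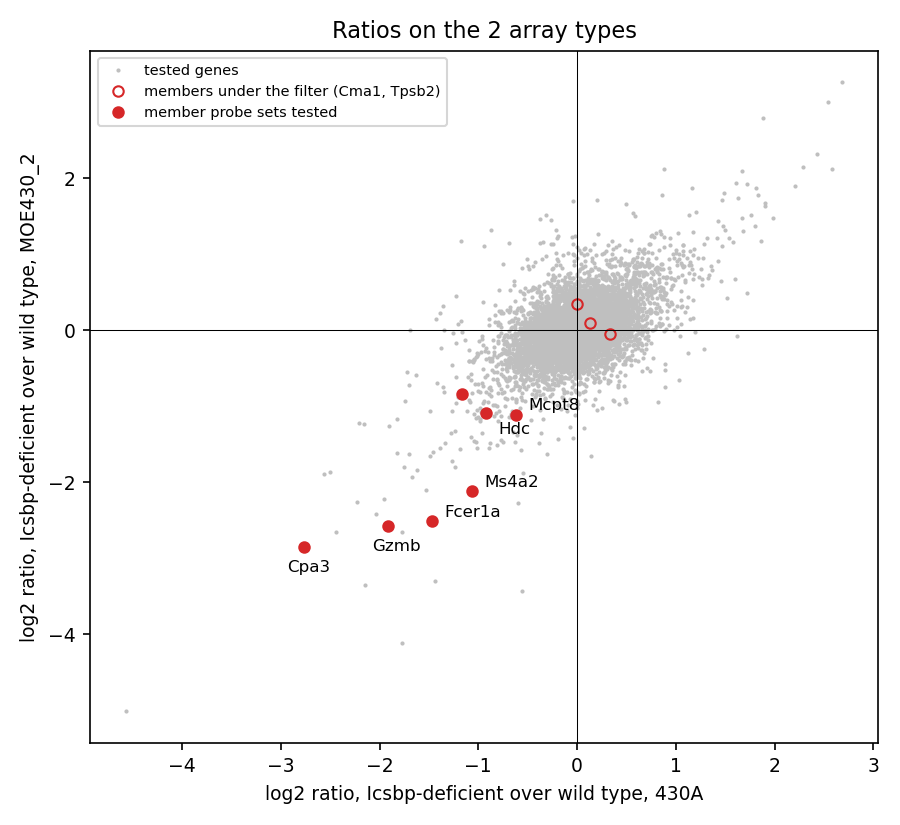
Log2 ratio of Icsbp-deficient over wild type on 430A (x axis) against that on MOE430_2 (y axis). Grey points are the 7820 tested genes, filled red circles the 7 tested member probe sets (Hdc has 2) and open red circles the 3 under the filter. The filled circles lie below 0 on both axes, from Mcpt8 at -0.62 and -1.11 to Cpa3 at -2.77 and -2.85, and the open circles lie near 0.

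The genes of the alpha and beta chains of the IgE receptor were both lower. Fcer1a, the alpha chain that contacts IgE, gave 232 on 430A and 385 on MOE430_2 in wild type GMP, and 51.5 and 24.9 in Icsbp-deficient GMP. Its log2 ratio was -1.47 on 430A and -2.51 on MOE430_2, with a mean of -1.99 ± 0.26 (limma adjusted p = 0.00246). Ms4a2, the beta chain that amplifies the receptor's signal, gave 322 and 326 in wild type GMP, and 129 and 35.9 in Icsbp-deficient GMP. The wild type arrays were nearly equal, while the Icsbp-deficient arrays differed from each other, and the ratio was -1.06 on 430A and -2.11 on MOE430_2. The mean was -1.59 ± 0.25 (adjusted p = 0.00658), and the call ended without the filter on low signals (adjusted p = 0.0565). The second Ms4a2 probe set, on the MOE430_2 arrays alone, read 799 for wild type against 139 for Icsbp-deficient GMP, a log2 ratio of -2.17 with no replicate and no test. That is close to the -2.11 of the first probe set on the same arrays.

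The gamma chain did not follow. Fcer1g, which signals for several Fc receptors, read 1301 and 1516 in wild type GMP, on 430A and MOE430_2, and 2190.2 and 2151 in Icsbp-deficient GMP. It rose by 0.62 ± 0.13 (limma adjusted p = 0.0246), a call that ended without the intensity trend (adjusted p = 0.109) and without the filter (adjusted p = 0.0576). Its ratio was -0.17 on the unscaled deposited values, where the median over the tested probe sets was -0.65. Of 18 genes listed for the receptor's signalling path, 16 were on shared probe sets, 12 were tested, 2 rose and 0 fell, and their median log2 ratio was 0.1. The other rise was the adaptor Lcp2 at 0.65 ± 0.16 (adjusted p = 0.0469), which was -0.12 on the unscaled deposited values. Its call ended without the trend (adjusted p = 0.131), without the filter (0.109), with an offset of 16 (0.0673) and with a floor of 50 (0.0519). The kinases Syk and Btk were at 0.15 ± 0.13 and 0.05 ± 0.13, the kinase Fyn at -0.62 ± 0.23 (adjusted p = 0.18), and the growth factor receptor Kit, which mast cells depend on, at 0.28 ± 0.12 (adjusted p = 0.236). Lat, an adaptor, lay under the filter and was not tested. It read 118 and 26.0 on 430A and 61.1 and 10.4 on MOE430_2, wild type first. Its log2 ratio was -1.14 on 430A and -0.86 on MOE430_2, so the 0 that fell covers the tested genes only.

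**Figure D3:**
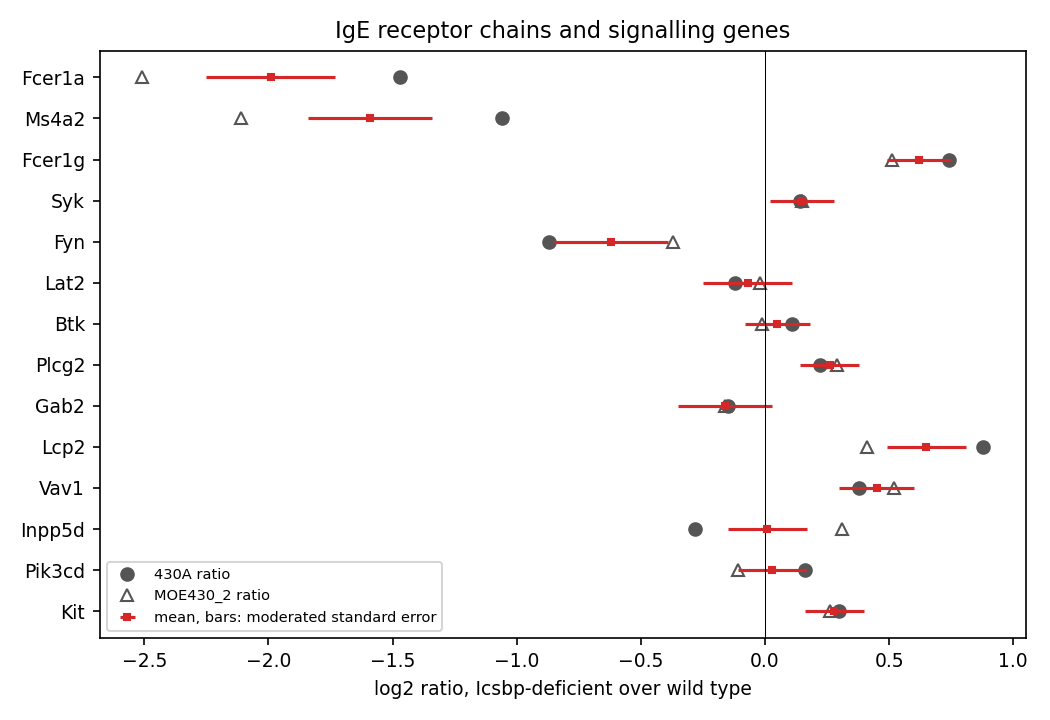
Log2 ratios of Icsbp-deficient over wild type for the IgE receptor chains and the 12 tested genes of their signalling path, which include Fcer1g. Circles are 430A, open triangles MOE430_2, and red squares the mean with its moderated standard error. Fcer1a and Ms4a2 lie at -1.99 and -1.59 while Fcer1g lies at 0.62.

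Hdc, histidine decarboxylase, makes histamine from histidine. Its first probe set read 1713.6 on 430A and 1503.7 on MOE430_2 in wild type GMP, and 877 and 671 in Icsbp-deficient GMP. Its second read 1460.1 and 2459.9 in wild type, and 626.5 and 1339.8 in Icsbp-deficient GMP. Within each probe set wild type was above Icsbp-deficient GMP on both array types. The probe sets gave nearly the same mean log2 ratio, -1.01 ± 0.14 and -1.0 ± 0.14 (limma adjusted p = 0.00315 and 0.00364). Within the array types the second was at -1.17 on 430A and -0.84 on MOE430_2. With 1 array left out, it moved to -0.47 without the Icsbp-deficient 430A array and -0.64 without the wild type MOE430_2 array. Those fits leave array type out of the model, so their ratios also hold the difference between the array types. Both probe sets were still at percentiles 74.7 to 88.0 of the Icsbp-deficient arrays, all above the filter level. Of 12 other genes of mediator synthesis and storage, 8 were on shared probe sets, 4 were tested and 0 passed in either direction. They were Srgn, the granule proteoglycan serglycin, at 0.09 ± 0.08, Alox5ap of leukotriene synthesis at 0.13 ± 0.10, the histamine-degrading Hnmt at 0.19 ± 0.15 and the heparin-modifying Ndst2 at -0.11 ± 0.17. Ltc4s, Hpgds, Ptgs2 and Tph1 lay under the filter.

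Cma1, Mcpt8 and Gzmb share a position that their choice did not use. In RefSeq order they lie in 1 run of 15 protein-coding protease genes on chromosome 14, with Cma1 first and Gzmb last. Of the 15, 13 had a shared probe set and 3 were tested, namely Mcpt8, Ctsg and Gzmb. Ctsg, cathepsin G of the primary granules of GMP, lies next to Mcpt8 in this order, and read 14223.8 on 430A and 22955.6 on MOE430_2 in wild type GMP, and 14996.5 and 27587.3 in Icsbp-deficient GMP. Its log2 ratio was 0.01 ± 0.07 (limma adjusted p = 0.942) and 0.17 with scaling alone. At percentile 99.9 of every array, quantile normalization sets both genotypes to nearly the same value, and the sign turned in 3 other settings. The other 10 genes with a probe set, among them the mast cell proteases Mcpt1, Mcpt2 and Mcpt4 and the granzymes Gzmc to Gzmg, lay under the filter. Members of this run are related in sequence, and how far their probe sets share targets was not checked here. Of 18 other granule proteases listed, 14 had a shared probe set and only Ctsg was tested.

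**Figure D4:**
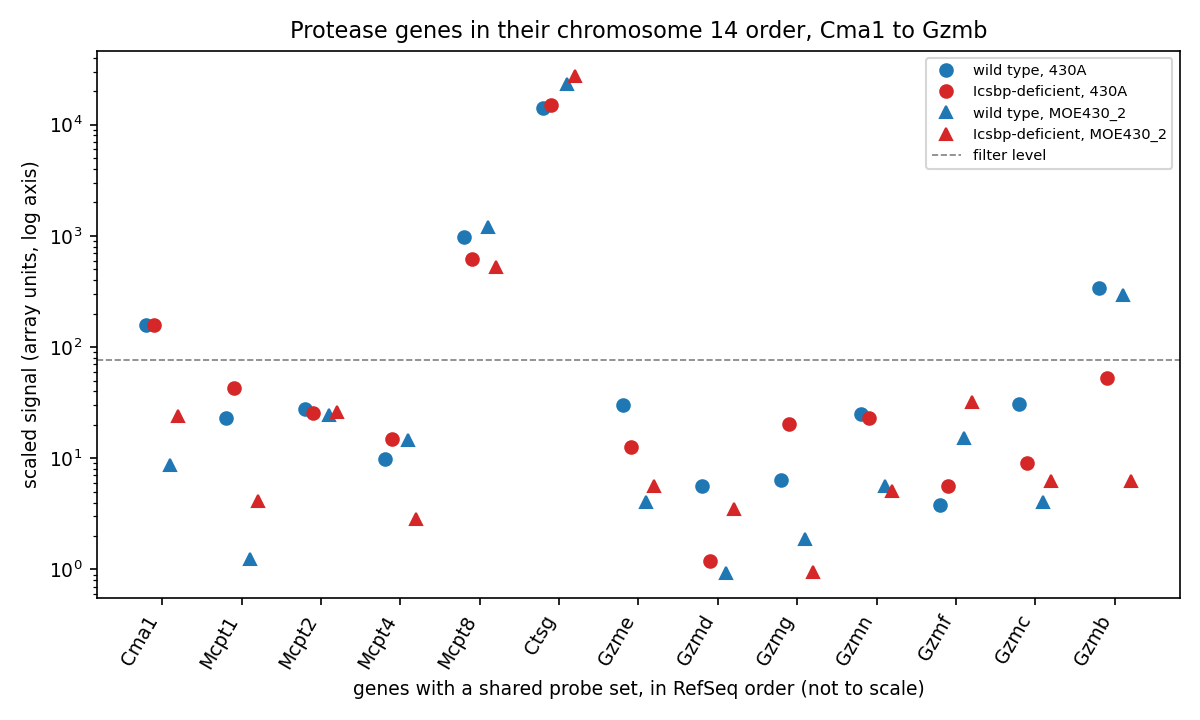
Scaled signal (array units, log axis) on the 4 arrays for the 13 genes with a shared probe set in the chromosome 14 protease run, in RefSeq order and not to scale. Mcpt8 and Gzmb are lower in red (Icsbp-deficient) than in blue (wild type) on both array types. Ctsg is high on all 4 arrays, and the 10 remaining genes lay under the filter on their mean.

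Of 12 genes listed for interleukin 33 and related receptors 10 were on shared probe sets, 7 were tested and 0 passed, with a median log2 ratio of 0.22. Il1rap, the partner chain that Il1rl1 uses, was at 0.22 ± 0.16 (limma adjusted p = 0.522) and the adaptor Myd88 at 0.23 ± 0.14 (adjusted p = 0.442). Of 9 listed receptors and surface proteins of basophils 7 were tested and 0 passed. The interleukin 3 receptor alpha chain Il3ra was at 0.16 ± 0.18, and the integrin Itgb7 was at -0.91 ± 0.23 with an adjusted p of 0.0503. It passed with scaling alone (adjusted p = 0.0277), cyclic loess (0.0454) and a floor of 50 (0.0387). Among 12 lineage factors 10 were tested, 1 rose and 2 fell. Gata2 read 745 and 176 on 430A and 296 and 59.6 on MOE430_2, wild type first, and fell by 1.72 ± 0.17 (adjusted p = 0.000584). Its ratio was -1.82 on 430A and -1.62 on MOE430_2. With 1 array left out it was -1.11 (no wild type 430A array), -1.21 (no Icsbp-deficient MOE430_2 array) and -2.34 (no wild type MOE430_2 array). Those fits leave array type out of the model, so their ratios also hold the difference between the array types. Tal1, a factor of stem, erythroid and mast cells, fell by 0.95 ± 0.17 (adjusted p = 0.0118, and 0.0583 without the filter). Cebpa, which directs granulocyte fate, rose by 0.69 ± 0.12 (adjusted p = 0.0117, and 0.0949 without the trend). Cebpa was at 0.52 on 430A and 0.86 on MOE430_2. With 1 array left out it ran from 0.21, without the wild type MOE430_2 array, to 1.17, without the wild type 430A array. The limit given for Gata2 holds there too. On the unscaled deposited values Cebpa was at -0.08, where the median over the tested probe sets was -0.65. Mitf, a factor of mast cells and pigment cells, was at 0.01 ± 0.18 and Gata1 at -0.52 ± 0.22 (adjusted p = 0.247).

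The 5 tested genes outside the members whose pair of ratios lay nearest to that of Cpa3, by Euclidean distance over the 2 array types, were Gm6958, Klf4, Ctsh, Grb10 and Rab38. Their distances ran from 0.38 to 0.98 on the log2 scale. Gm6958 had ratios of -2.44 on 430A and -2.65 on MOE430_2, and Ctsh, a lysosomal protease, -2.23 and -2.25.

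Markers of other cell types that a sorted progenitor sample could hold were summed over each list as scaled signal. The 9 measured natural killer and cytotoxic T cell genes, among them Prf1, Gzma and Cd3e, were all under the filter, and their sum was 266.5 to 474 in wild type and 195 to 557 in Icsbp-deficient GMP. Of 4 measured eosinophil genes Il5ra and Ccr3 lay under the filter and Prg2 and Epx fell. Prg2 had a log2 ratio of -2.94 ± 0.40 (limma adjusted p = 0.00311), with -1.77 on 430A and -4.12 on MOE430_2. Epx had -1.99 ± 0.49 (adjusted p = 0.0462), with -0.56 on 430A and -3.43 on MOE430_2. The Epx call ended without the trend (0.164), without the filter (0.176), with an offset of 16 (0.084) and with a floor of 50 (0.0582), and its ratio was -1.19 without the wild type MOE430_2 array. The eosinophil sum was 1284 and 3304 in wild type against 463 and 211.5 in Icsbp-deficient GMP. Of 4 erythroid genes 3 were tested and Car1 fell by 2.37 ± 0.36 (adjusted p = 0.00545, and 0.0505 without the filter). The Car1 ratio was -1.44 on 430A and -3.3 on MOE430_2. Its Icsbp-deficient signals, 43.1 and 2.52, lay under the filter level, so it passed the filter through its wild type signal. The erythroid sum went from 722 to 467 on 430A and from 766 to 77.9 on MOE430_2. Of 4 megakaryocyte genes Itga2b fell by 0.86 ± 0.18 (adjusted p = 0.022), a call that ended without the trend (0.0604) and without the filter (0.0997). Its ratio was -0.66 on 430A and -1.06 on MOE430_2. With 1 array and the array type term left out, it ran from -0.34 (no Icsbp-deficient MOE430_2 array) to -1.38 (no Icsbp-deficient 430A array). The megakaryocyte sum went from 793 to 579.5 on 430A and from 472 to 241 on MOE430_2. Itga2b alone went from 524 to 315 on 430A and from 324 to 123 on MOE430_2. Gp9, the other tested gene of this list, was at 0.08 ± 0.22 (limma adjusted p = 0.889). Pf4, lower in Icsbp-deficient GMP on both array types, and Ppbp, higher on both, lay under the filter. Of the 5 plasmacytoid dendritic cell genes 3 were tested and of the 3 B cell genes 1, and 0 of these passed. Their sums were 709 to 983 and 450.0 to 617 in wild type, and 750.0 to 766.5 and 547 to 729 in Icsbp-deficient GMP.

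The marker genes of GMP themselves were high in both genotypes, with summed signals of 67206.8 and 101164 in wild type and 67579 and 125051 in Icsbp-deficient GMP. All 7 measured markers were tested, and Mpo, Elane, Prtn3 and Ctsg stood at percentile 99.8 or above on every array, where quantile normalization holds ratios near 0. Fcgr3 rose by 1.0 ± 0.11 and Cd34 fell by 1.73 ± 0.13 (limma adjusted p = 0.000776 and 0.000134). With 1 array left out Fcgr3 was called in 0 of 4 fits and Cd34 in all 4, and Fcgr3 was at 0.24 on the unscaled deposited values. The part that the eosinophil, erythroid and megakaryocyte genes, Cd34 or the make-up of the sorted cells had in the lower basophil and mast cell transcripts was not tested.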

How the data were processed

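The measure was a linear signal intensity per probe set as deposited, with 22690 probe sets on 430A arrays and 45101 on MOE430_2 arrays. The Icsbp-deficient 430A sample (5 µg RNA) was labelled by an ENZO kit and the MOE430_2 samples by a one-cycle kit, per the labels' protocols, which name no kit for the wild type 430A sample. The submitters' processing notes name GCOS, for MOE430_2 alone. Trimmed means (2%) of the deposited intensity were 500.15 for the wild type and 167.7 for the Icsbp-deficient 430A array, and 82.1 and 80.6 for MOE430_2.

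From the 22690 shared probe sets 64 controls were removed. Arrays were scaled to a common trimmed mean (500), 50 was added, log2 taken and both arrays of a type quantile normalized. Probe sets with a mean under the 40th percentile were not tested, which left 13576. The test was limma 3.58.1 in R 4.3.3 (two-sided) with array type as a block and a trend of variance with intensity, and p-values were adjusted by Benjamini-Hochberg over all tested probe sets and a threshold of 0.05. A gene stood by its tested probe set of highest mean signal. With 1 residual degree of freedom, tests on simulated data showed that false calls could exceed the nominal share, so adjusted p-values are approximate. Symbols came from the platform annotation, updated through RefSeq (GRCm38.p6): of 22626 probe sets 20380 had 1 symbol, 691 several and 1555 none. The rule for named genes took all members, the called genes of each list (at most 4), defining markers of other cell types, Irf8 and the 5 genes nearest to Cpa3. Other list genes were named for their known roles after their values were seen. The members and lists were chosen with earlier results of these data known. Alternatives changed the block, trend, filter, scaling, offset and probe set rule, or left out 1 array. The number of arrays limits the precision.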

Additional observations from a re-analysis of the deposited data

How the results depend on the processing

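The count of 6 members called lower was 6 with scaling alone, cyclic loess, an offset of 16, a floor of 50 and the mean of a gene's tested probe sets, 5 without the intensity trend and 4 without the filter on low signals. It was 3 with the filter at the 60th percentile, where Fcer1a, Ms4a2 and Gzmb were no longer tested. It was 0 without the array type block and 0 on the unscaled deposited values, whose 430A arrays differ in scale. Over all genes, 255 higher and 183 lower calls became 94 and 78 without the trend, 114 and 66 without the filter, 0 and 1 without the block, 0 and 0 on the deposited values, and 15 to 16 and 11 to 21 with 1 array left out; 1525 genes had an unadjusted limma p under 0.05 in the main setting. Leaving out 1 array at a time, in the unblocked fit in which the lone array of a group is assumed to vary like the other group, gave 1 to 2. Members called higher stayed at 0 throughout. The log2 ratio of each of the 7 tested member probe sets kept its sign in every setting in which it was tested, between -3.26 and -2.58 for Cpa3, -3.06 and -1.81 for Gzmb, -2.57 and -1.69 for Fcer1a, -2.11 and -1.06 for Ms4a2, -1.69 and -0.83 and -1.68 and -0.47 for the Hdc probe sets, and -1.51 and -0.72 for Mcpt8. On the deposited values the sign turned for Fcer1g (-0.17), Lcp2 (-0.12), Cebpa (-0.08), Ctsg (-0.62) and Kit (-0.50), and the ratio of Ctsg was also -0.39 without the wild type 430A array and -0.37 without the Icsbp-deficient MOE430_2 array, and ran up to 0.42 without the wild type MOE430_2 array. On the deposited values the Icsbp-deficient 430A array has a lower scale than the wild type one, with trimmed means of 167.7 and 500.15. The median ratio over the tested probe sets was -0.65 there. The fits with 1 array left out leave array type out of the model, so their ratios also hold the difference between the array types. Other sources of these changes were not tested. The size of a fall to signals near the offset depends on the offset. With 16 in place of 50, Gzmb went from -2.24 to -3.06, Fcer1a from -1.99 to -2.57 and Cpa3 from -2.81 to -3.09. Cpa3 and Gzmb were then nearly equal.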
